A study of Mus musculus with 2 samples.

Results

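The genes described here encode the proteins of the extracellular matrix: collagens, laminins, nidogens, fibulins, fibrillins, thrombospondins, lysyl oxidases and related glycoproteins and proteoglycans. They were picked from the 18919 genes of the expression table by symbol. Col4a3bp, which the symbols also matched, encodes a ceramide transfer protein and was set aside, and 80 matrix genes are described, among them 21 basement membrane genes, 11 fibrillar collagen genes and 48 others. Expression was measured by RNA sequencing of whole intestine in 2 libraries, 1 per genotype. The knockout library came from APCmin; Setd2IEC-/- mice, which carry the Min mutation of the tumour suppressor Apc and lack Setd2 in intestinal epithelial cells. The control library came from APCmin mice, so the Apc mutation was shared by both genotypes. All mice were 2 months old, on the C57BL/6 background and untreated, and each library held the mixed RNA of 3 littermates. The Cre line that deleted Setd2 and the segment of intestine are not given in the sources used here. Apc-Min mice develop intestinal adenomas, and Setd2 is the methyltransferase responsible for trimethylation of histone H3 lysine 36. With 1 library per genotype, a difference below is one between these 2 pools, with no replicate check and no p-value.

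The extracellular matrix is the protein network outside cells. Basement membranes are thin sheets under epithelia and around vessels, muscle and nerves, built of a laminin network and a type IV collagen network that nidogens and perlecan join. In the intestine they lie between the epithelium and the stroma, and epithelial and stromal cells both supply their chains. Fibrillar collagens form the tensile fibres of the stroma and are made mainly by fibroblasts, and lysyl oxidases cross-link them.

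Expression levels are given in FPKM, the fragments per kilobase of transcript scaled to the mapped total, as the authors deposited them. Genes at 1 FPKM or above in either library were taken as measured, 13253 genes in all and 50 of the 80 matrix genes. The log2 ratio is that of the knockout over the control pool with 1 FPKM added to both, and a gene was counted as past 2-fold at a log2 ratio of 1 or more, or of -1 or less. The count ratio compares the deposited expected counts, scaled to totals of 8646358 in the knockout and 8809678 in the control library, and its 95% interval, the exact Clopper-Pearson interval, covers counting error only. Setd2 itself was at 3.47 FPKM in the knockout pool and 6.87 in the control pool, a count ratio of 0.504 (0.432 to 0.587). Epithelial RNA was abundant in both pools, where 8 epithelial marker genes summed to 5088 FPKM in the knockout pool and 4836 in the control pool. Smooth muscle RNA was present as well, with 10 marker genes at 634.5 FPKM in the knockout pool and 610.3 in the control pool.

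Matrix genes were higher in the knockout pool as a group. Among the basement membrane, fibrillar and other genes, the basement membrane genes were so most. The 80 genes added up to 520.7 FPKM in the knockout pool and 450.5 in the control pool, with a ratio of summed counts of 1.20 (1.18 to 1.23). The 21 basement membrane genes had a ratio of summed counts of 1.52 (1.46 to 1.58), the 11 fibrillar collagen genes one of 1.195 (1.14 to 1.25) and the 48 others one of 1.07 (1.04 to 1.10), which was 0.9898 after TMM scaling of the library sizes, so that its direction depends on the scaling. The roles within these groups overlapped. Among the others, the lysyl oxidases had a ratio of summed counts of 1.38 (1.195 to 1.585), like the laminins at 1.38. The adhesive and matricellular genes had 1.24 (1.18 to 1.29) and the elastic fibre genes 0.719. With TMM scaling the lysyl oxidases had 1.27 and the adhesive and matricellular genes 1.145. Of the 50 measured genes, 45 had a log2 ratio above 0 and the median was 0.25, beside 62.5% above 0 and a median of 0.08 over all measured genes. By the 2-fold rule 0 of the 50 were higher and 0 lower, where 2.78% of all measured genes were higher and 1.28% lower. The counting interval lay above 1 for 29 of the 50 and below 1 for 1, Fbln1, while it lay above 1 for 28.0% and below 1 for 12.5% of all measured genes. Long, well-counted transcripts narrow these intervals, so the same was counted among genes with 50 or more expected counts in a library, where 29 of 46 matrix genes and 30.4% of 11246 genes had an interval above 1. Transcripts of 5000 nucleotides or more, the length of most basement membrane chains, had a median log2 ratio of 0.09 over 1956 measured genes. Of the measured matrix genes, 3 reached 1 FPKM through the knockout library alone, Col7a1, Col20a1 and Col11a2. Col7a1 and Col20a1 are among the 29 with an interval above 1, so the filter adds to that count. Col7a1 is also among the 12 of 14 measured basement membrane genes with such an interval. In these bulk samples fewer or more matrix-producing cells and a different amount of RNA per cell cannot be told apart.

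**Figure D1:**
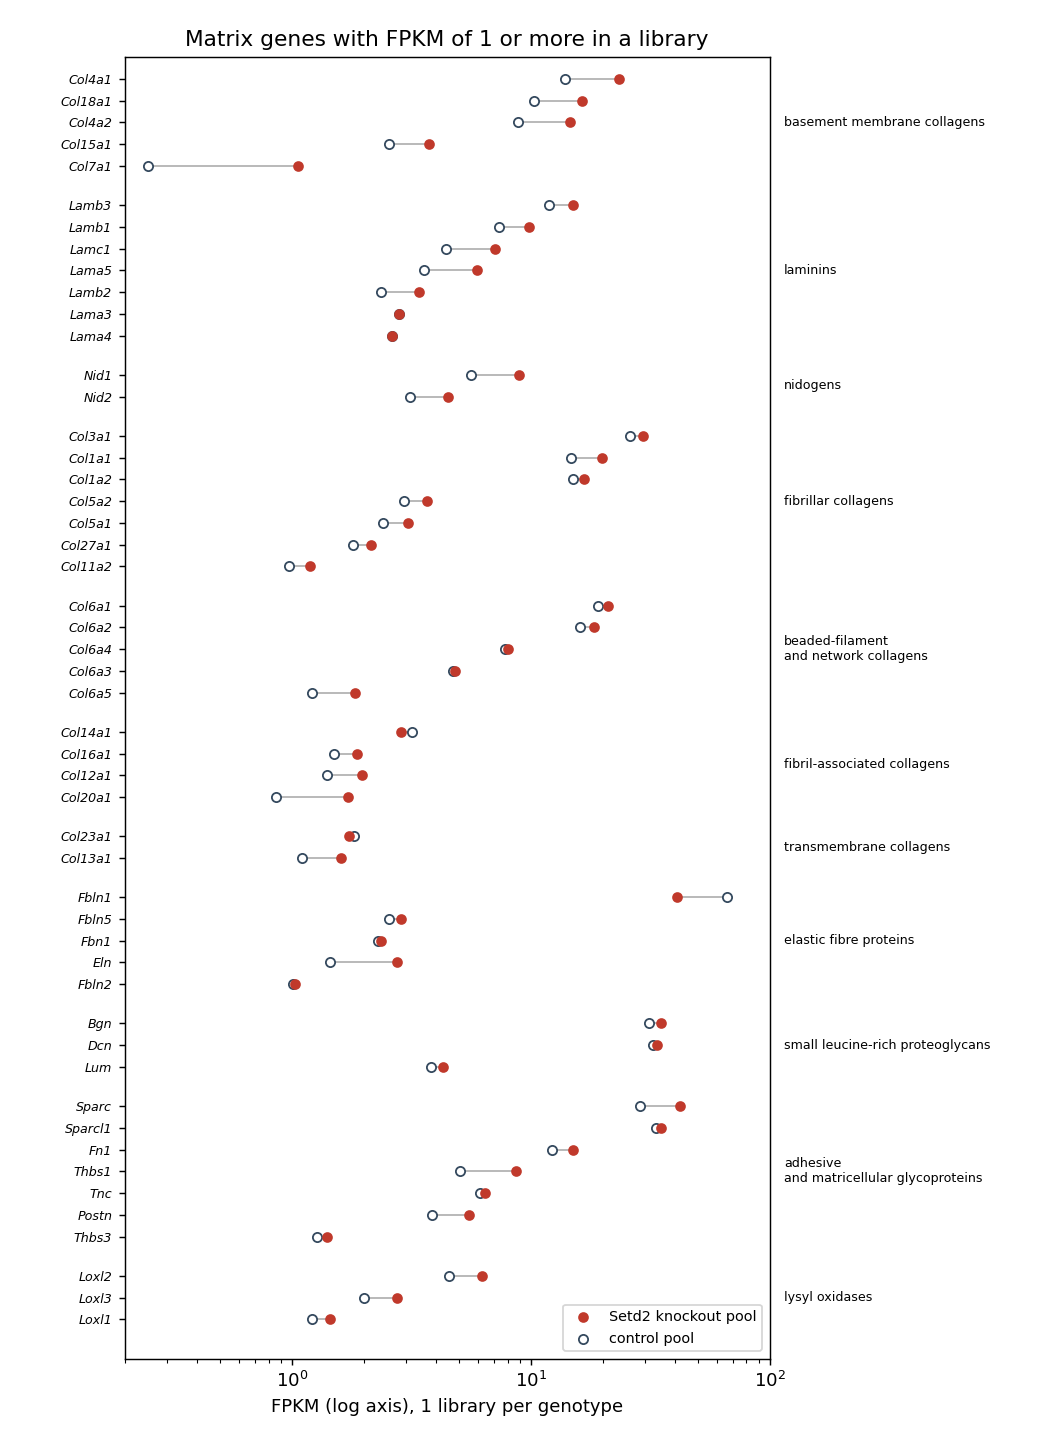
FPKM (log axis) of the 50 matrix genes with 1 FPKM or more in a library, grouped by role, with the knockout pool as filled and the control pool as open circles and 1 library per genotype. The filled circles lie to the right for nearly all basement membrane genes, while Fbln1, at 40.9 FPKM in the knockout and 66.2 in the control pool, lies the other way.

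Type IV collagen, the network-forming collagen of every basement membrane, was higher in the knockout pool in both of its ubiquitous chains. Col4a1 (gene 12826, chr8:11198423-11312889 in the RefSeq annotation of GRCm38.p6, the assembly of mm10) was at 23.3 FPKM in the knockout pool and 13.9 in the control pool, a count ratio of 1.68 (1.54 to 1.83). Col4a2 (gene 12827, chr8:11312805-11449287) was at 14.6 FPKM in the knockout pool and 8.87 in the control pool, a ratio of 1.64 (1.47 to 1.84). These chains assemble together, in the known protein with more of the alpha1 than of the alpha2 chain, and the FPKM ratio of Col4a1 to Col4a2 was 1.60 in the knockout pool and 1.57 in the control pool. The change in one chain relative to the other was 1.02-fold, with a counting interval of 0.885 to 1.18, so the pools did not differ in chain balance beyond counting error. The other type IV chains, which are typical of kidney, lung and other special basement membranes, were at or below 0.99 FPKM. Col4a5 among them was at 0.99 FPKM in the knockout and 0.55 in the control pool, from 55 and 32 counts, a ratio of 1.75 (1.11 to 2.80), and the intervals of Col4a3, Col4a4 and Col4a6 included 1.

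Col4a1 and Col4a2 lie head to head on opposite strands, and their annotated genes overlap by 85 bases at the 5′ ends, where reads cannot be assigned to one of them without strand information. Their promoter windows, each of 300 bases around an annotated transcript start in the RefSeq table of GRCm38.p6, share 78 bases (chr8:11312777-11312854). They are shown because they belong to a pair that moved together, beside the windows of 2 fibrillar genes, Col1a2 and Col3a1, whose count ratios were 1.11 and 1.13. Each is written 5′ to 3′ on the gene's own strand, from chr8:11312777-11313076 (minus strand) for Col4a1, chr8:11312555-11312854 (plus) for Col4a2, chr6:4505368-4505667 (plus) for Col1a2 and chr1:45311288-45311587 (plus) for Col3a1. Capitals mark matches, on either strand, to 4 promoter motifs: the CCAAT box (CCAAT), the GC box (GGGCGG), the TATA box (TATAAA) and the AP-1 site (TGANTCA).
Col4a1: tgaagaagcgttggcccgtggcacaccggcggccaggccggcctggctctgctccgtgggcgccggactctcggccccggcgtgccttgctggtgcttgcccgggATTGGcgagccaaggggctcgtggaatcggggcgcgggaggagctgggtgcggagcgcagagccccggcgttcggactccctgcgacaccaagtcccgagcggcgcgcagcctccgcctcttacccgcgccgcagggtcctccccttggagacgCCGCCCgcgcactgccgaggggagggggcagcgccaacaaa
Col4a2: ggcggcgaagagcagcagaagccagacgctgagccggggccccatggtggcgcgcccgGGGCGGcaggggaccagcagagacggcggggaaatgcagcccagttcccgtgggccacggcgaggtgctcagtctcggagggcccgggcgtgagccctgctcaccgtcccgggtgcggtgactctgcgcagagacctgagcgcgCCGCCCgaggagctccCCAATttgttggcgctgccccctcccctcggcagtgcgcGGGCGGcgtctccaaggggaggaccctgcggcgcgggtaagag
Col1a2: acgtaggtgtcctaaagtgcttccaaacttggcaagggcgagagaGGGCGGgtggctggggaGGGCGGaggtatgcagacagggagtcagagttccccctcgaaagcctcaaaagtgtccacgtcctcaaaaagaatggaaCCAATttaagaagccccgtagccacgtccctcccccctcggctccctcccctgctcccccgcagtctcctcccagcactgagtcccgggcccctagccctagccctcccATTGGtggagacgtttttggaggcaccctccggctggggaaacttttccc
Col3a1: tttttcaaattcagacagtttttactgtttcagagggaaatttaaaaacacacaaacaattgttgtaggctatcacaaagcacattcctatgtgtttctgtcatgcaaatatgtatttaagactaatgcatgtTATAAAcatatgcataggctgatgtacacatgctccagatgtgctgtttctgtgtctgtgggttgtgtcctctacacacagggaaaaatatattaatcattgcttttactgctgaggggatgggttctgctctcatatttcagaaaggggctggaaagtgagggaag
The Col4a2 window held 1 CCAAT match and 3 GC box matches and the Col4a1 window 1 of each, and neither held the TATA letters. The Col1a2 window had 2 CCAAT and 2 GC box matches, and the Col3a1 window had 1 TATA match and none of the other letters. Over the 62 windows that the table lists for 54 matrix genes, the GC box letters occurred in 37 (59.7%), against 35.7% of all 32851 windows. The CCAAT letters occurred in 20 (32.3%, against 37.4% of all windows), the TATA letters in 9 (14.5%, against 13.6%) and the AP-1 letters in 1 (1.61%, against 7.81%). Of the 16 windows of basement membrane genes 10 held the GC box letters and 0 the TATA letters, and of the 8 fibrillar windows 6 and 2 did. A match is a string of letters in the window, not a bound site.

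The remaining basement membrane collagens moved the same way, at levels below that of Col4a1. Col18a1 (gene 12822, chr10:77052178-77166530), a proteoglycan-type collagen of vessel and epithelial basement membranes whose C-terminal fragment is endostatin, was at 16.4 FPKM in the knockout pool and 10.3 in the control pool, a ratio of 1.59 (1.41 to 1.79). Its relative Col15a1, found where basement membranes meet stromal fibres, was at 3.77 FPKM in the knockout pool and 2.54 in the control pool, a ratio of 1.48 (1.17 to 1.88). Col7a1 (gene 12836, chr9:108953586-108984875) encodes the anchoring fibril collagen that ties epithelial basement membranes to the stroma. It was at 1.06 FPKM in the knockout pool and 0.25 in the control pool, from 86 and 21 counts, a ratio of 4.17 (2.57 to 7.08). Its low level kept its log2 ratio, with 1 FPKM added, at 0.72, under the 2-fold rule. Over the 9 basement membrane collagens together the summed counts had a ratio of 1.66 (1.57 to 1.75).

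Laminins are trimers of an alpha, a beta and a gamma chain, and the chains differed in how far they were apart between the pools. Lamb3 (gene 16780, chr1:193294353-193343878), the beta3 chain of epithelial laminins, was at 15.0 FPKM in the knockout pool and 11.97 in the control pool, a ratio of 1.25 (1.10 to 1.43). Lama3, the alpha3 chain of the laminins that anchor epithelia through hemidesmosomes, was at 2.82 FPKM in both pools, a ratio of 0.999 (0.838 to 1.19). The FPKM of Lamb3 per FPKM of Lama3 was 5.32 in the knockout pool and 4.24 in the control pool, and relative to Lama3 the counts of Lamb3 were 1.25-fold higher in the knockout pool (1.01 to 1.56), a ratio within each library that no scaling between libraries can move.

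The chains of laminin-511, a major laminin under mature intestinal epithelium, were each higher in the knockout pool. Lama5 (gene 16776, chr2:180176373-180225904), the alpha5 chain, was at 5.96 FPKM in the knockout pool and 3.59 in the control pool, a ratio of 1.66 (1.46 to 1.90). Lamc1 (gene 226519, chr1:153218922-153332786), the gamma1 chain shared by most laminins, was at 7.12 FPKM in the knockout pool and 4.43 in the control pool, a ratio of 1.61 (1.39 to 1.86). Lamb1, the beta1 chain, was at 9.87 FPKM in the knockout pool and 7.37 in the control pool, a ratio of 1.34 (1.17 to 1.53). Lama5 and Lamc1 differed in ratio by 1.03-fold with an interval of 0.848 to 1.26, while Lama5 exceeded Lamb1 by 1.24-fold (1.03 to 1.50). Lamb2, a beta chain of vessel and muscle basement membranes, was at 3.41 FPKM in the knockout pool and 2.37 in the control pool, a ratio of 1.44 (1.13 to 1.83). Lama4, the alpha chain of endothelial and muscle basement membranes, was at 2.63 FPKM in both pools, a ratio of 0.997 (0.784 to 1.27). Lama1 (gene 16772, chr17:67697127-67822645), the alpha chain best known from embryonic basement membranes, was under 1 FPKM in both pools, at 0.93 FPKM in the knockout and 0.26 in the control pool. From 78 and 22 counts its ratio was 3.61 (2.23 to 6.09). Lama2, of muscle, at 0.59 FPKM in the knockout and 0.42 in the control pool, and Lamc3, at 0.37 and 0.26, had intervals that included 1. The 10 laminin genes had a ratio of summed counts of 1.38 (1.30 to 1.46).

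**Figure D2:**
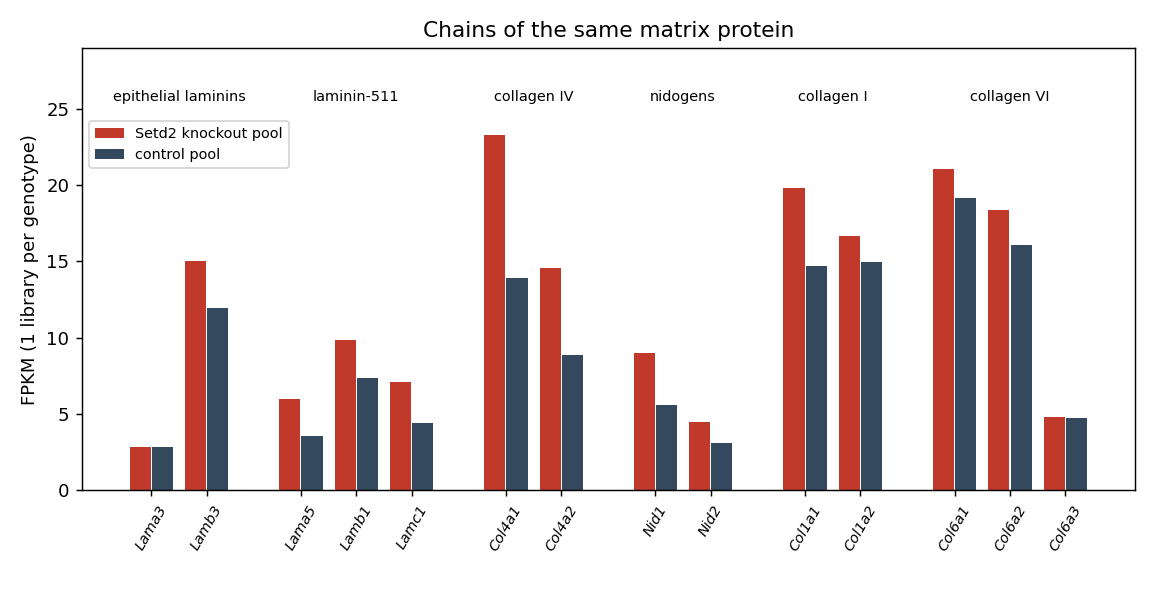
FPKM (linear axis from 0) of Lama3 and Lamb3 and of the chains of laminin-511, collagen IV, the nidogens, collagen I and collagen VI, with the knockout bar left of the control bar and 1 library per genotype. Lama3 stands at 2.82 FPKM in both pools, while Col4a1 and Col4a2 are higher in the knockout pool and keep their proportion.

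The nidogens, which link the laminin and type IV collagen networks, were both higher in the knockout pool. Nid1 (gene 18073, chr13:13437602-13512275) was at 8.97 FPKM in the knockout pool and 5.62 in the control pool, a ratio of 1.60 (1.38 to 1.85). Nid2 was at 4.49 FPKM in the knockout pool and 3.11 in the control pool, a ratio of 1.45 (1.16 to 1.81). The large basement membrane proteoglycans, listed with other matrix proteins and not among the 80 genes, were nearer to 1. Hspg2, which encodes perlecan, was at 5.15 FPKM in the knockout pool and 4.35 in the control pool, a ratio of 1.18 (1.06 to 1.33, and 0.978 to 1.23 with TMM scaling of the library sizes). Agrn, which encodes agrin, was at 31.3 FPKM in the knockout pool and 29.96 in the control pool, a ratio of 1.04 (0.980 to 1.11). Both were named after their values were seen.

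The fibrillar collagens, the fibre-forming collagens of the stroma, differed less. Col3a1 (gene 12825, chr1:45311538-45349706), the most abundant of them and typical of distensible tissue, was at 29.65 FPKM in the knockout pool and 26.2 in the control pool, a ratio of 1.13 (1.05 to 1.22). Col1a1 (gene 12842, chr11:94936224-94953042), the alpha1 chain of type I collagen, was at 19.8 FPKM in the knockout pool and 14.7 in the control pool, a ratio of 1.345 (1.22 to 1.48). Its partner Col1a2 was at 16.7 FPKM in the knockout pool and 14.99 in the control pool, a ratio of 1.11 (1.004 to 1.24). The FPKM of Col1a1 per FPKM of Col1a2 was 1.19 in the knockout pool and 0.982 in the control pool, and relative to Col1a2 the counts of Col1a1 were 1.21-fold higher in the knockout pool (1.05 to 1.39). Type V collagen, which starts and sizes type I fibrils, was at 3.07 FPKM in the knockout and 2.42 in the control pool for Col5a1, a ratio of 1.27 (1.04 to 1.55). Col5a2 was at 3.69 FPKM in the knockout and 2.95 in the control pool, a ratio of 1.25 (1.02 to 1.54). Col27a1, at 2.14 FPKM in the knockout and 1.80 in the control pool, and Col11a2, at 1.19 and 0.97, both best known from cartilage, had intervals that included 1. Below 1 FPKM in both pools were Col5a3 (0.61 FPKM in the knockout and 0.33 in the control pool, a ratio of 1.87, 1.02 to 3.52, and 0.946 to 3.26 with TMM scaling), Col2a1, Col24a1 and Col11a1. With the library sizes scaled by the trimmed mean of M-values (TMM), which lowered every knockout value by 0.11 on the log2 scale, the interval stayed above 1 for 1 of the 7 measured fibrillar genes, Col1a1, and for the same 12 of 14 measured basement membrane genes, where it lay above 1 for 17.8% and below 1 for 20.7% of all measured genes.

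Basement membrane and fibrillar genes were compared directly through their counts within each library, which no scaling of the libraries alters. The 21 basement membrane genes had 6756 counts in the knockout pool and 4527 in the control pool, and the 11 fibrillar genes 3947 and 3365, so that basement membrane counts per fibrillar count were 1.27-fold higher in the knockout pool (1.20 to 1.35). This comparison was made after the values had been seen. The type IV and related collagens gave 1.39-fold (1.29 to 1.49), the laminins 1.16-fold (1.07 to 1.24) and the nidogens 1.30-fold (1.14 to 1.48). Without Col4a1, the gene with the most counts, the basement membrane genes gave 1.24-fold (1.17 to 1.32). The contrast also depends on which genes the symbols placed in the group. Outside the 21 are Hspg2, Agrn and Fbln1, whose proteins also occur in basement membranes, with ratios of 1.18, 1.04 and 0.617. All lie below the fibrillar ratio of 1.195, so including them would lower the contrast, and its size with them was not computed. Among measured genes the median log2 ratio was 0.51 for 14 basement membrane genes and 0.17 for 7 fibrillar genes. Over all 21 and 11 genes it was 0.39 and 0.17. Of the summed matrix FPKM, basement membrane genes took 23.6% in the knockout pool and 18.2% in the control pool, and fibrillar genes 14.85% and 14.4%.

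**Figure D3:**
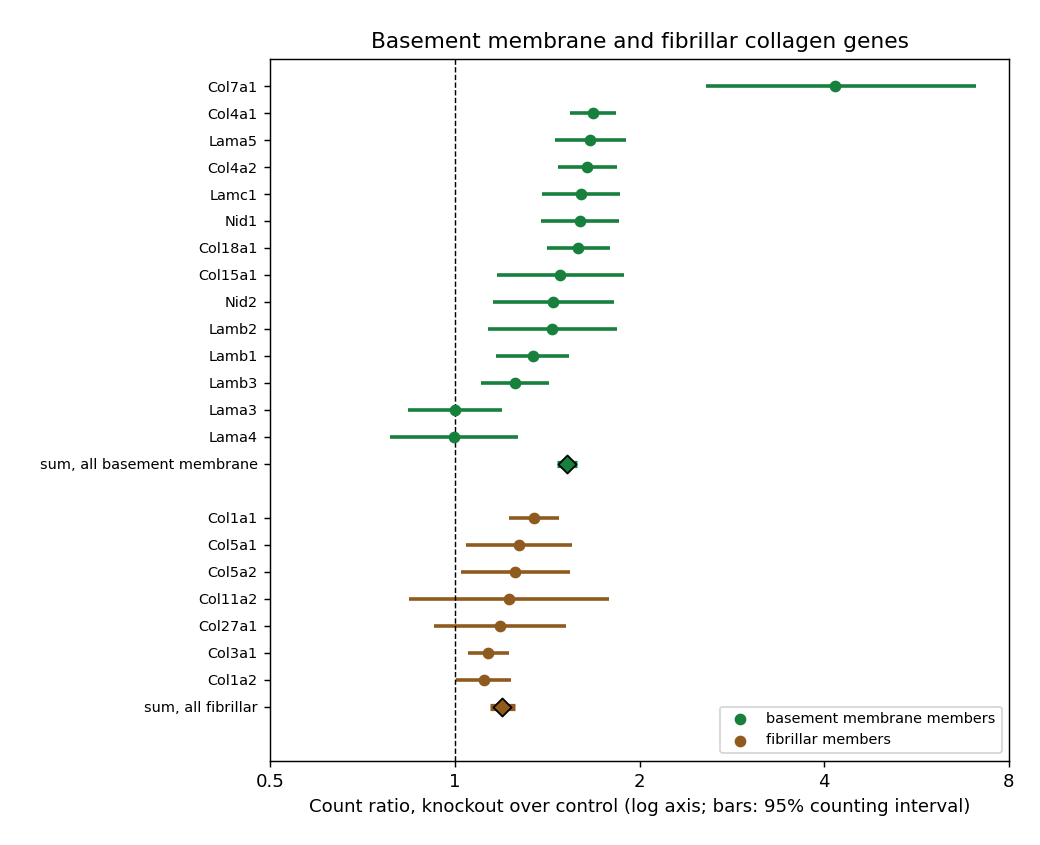
Count ratio of knockout over control (log axis) for the measured basement membrane and fibrillar genes, with 95% counting intervals as bars and the ratio of summed counts of all genes of the group as diamonds. The sums lie at 1.52 for basement membrane and 1.195 for fibrillar genes, and Lama3 and Lama4 lie at 1.

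**Figure D4:**
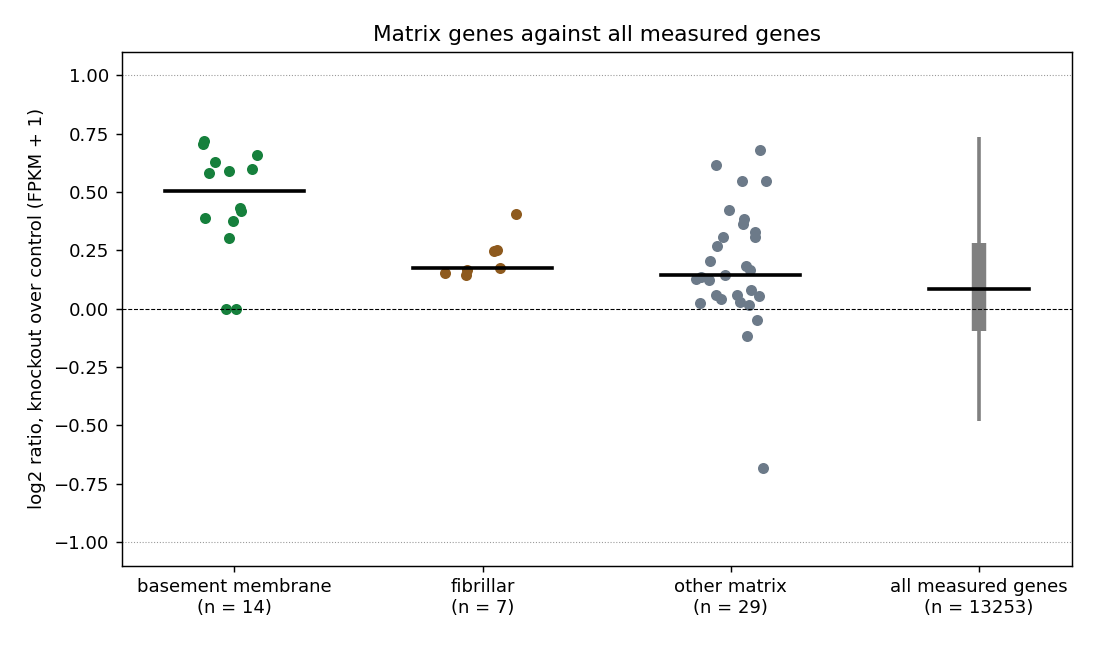
Log2 ratio of knockout over control with 1 FPKM added, for measured matrix genes (points; black bars are medians) and for all 13253 measured genes (thick bar from the 25th to the 75th percentile, thin line from the 5th to the 95th). The points lie between the dotted 2-fold lines, with Col7a1 highest at 0.72 and Fbln1 lowest at -0.68.

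Collagens of other kinds differed by kind and by chain. The type VI chains form beaded filaments around cells, and Col6a1 was at 21.04 FPKM in the knockout pool and 19.2 in the control pool, a ratio of 1.098 (0.988 to 1.22). Col6a2 was at 18.4 FPKM in the knockout pool and 16.1 in the control pool (1.14, 1.02 to 1.29, and 0.940 to 1.19 with TMM scaling). Col6a3 was at 4.80 FPKM in the knockout pool and 4.71 in the control pool (1.001, 0.867 to 1.16). Col6a4, a further type VI chain, was at 8.04 FPKM in the knockout and 7.78 in the control pool. Col6a5 was the type VI chain with the highest ratio among those measured, 1.51 (1.17 to 1.97), at 1.84 FPKM in the knockout and 1.21 in the control pool. The type VI and network collagens together had a ratio of 1.09 (1.03 to 1.16), which was 1.01 (0.955 to 1.07) with TMM scaling, and 2 of 5 measured had an interval above 1, beside 28.0% of all measured genes. Among fibril-associated collagens, which coat fibrils and alter their packing, Col14a1 was at 2.86 FPKM in the knockout pool and 3.19 in the control pool (0.897, 0.722 to 1.11). Col12a1 was at 1.97 FPKM in the knockout and 1.40 in the control pool (1.41, 1.13 to 1.75), and Col20a1 at 1.72 and 0.86 (2.01, 1.29 to 3.17). Col16a1 was at 1.88 FPKM in the knockout and 1.50 in the control pool, with an interval that included 1. The fibril-associated genes had 2 of 4 measured with an interval above 1, beside 28.0% of all measured genes. Col20a1, among these, was measured through the knockout library alone. The ratio of summed counts of the fibril-associated genes was 1.27 (1.12 to 1.44), which was 1.17 (1.035 to 1.33) with TMM scaling. Of the transmembrane collagens, which cells carry on their surface, Col13a1 was at 1.60 FPKM in the knockout and 1.10 in the control pool, and Col23a1 at 1.73 and 1.82, both with intervals that included 1, as did that of the 4 genes summed, 1.205 (0.944 to 1.54).

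Fbln1 (gene 14114, chr15:85205949-85286294) had the highest FPKM of the 80 genes in the control pool and was the measured matrix gene whose interval lay below 1. It encodes fibulin-1, a glycoprotein of elastic fibres and basement membranes that binds fibronectin and laminin. It was at 40.9 FPKM in the knockout pool and 66.2 in the control pool, from 1196 and 1975 counts, a ratio of 0.617 (0.574 to 0.663). With it the elastic fibre genes had a ratio of summed counts of 0.719 (0.675 to 0.765), and without it one of 1.15 (1.01 to 1.31), which was 1.07 (0.939 to 1.21) with TMM scaling. Eln, which encodes elastin, was at 2.76 FPKM in the knockout pool and 1.45 in the control pool, a ratio of 1.895 (1.33 to 2.73). Fbn1, the main fibrillin of microfibrils, was at 2.37 FPKM in the knockout pool and 2.30 in the control pool (1.03, 0.844 to 1.25). Fbln5, which helps elastin assemble, was at 2.87 FPKM in the knockout and 2.55 in the control pool, and Fbln2 at 1.03 and 1.01, both with intervals that included 1. Efemp1 and Efemp2, fibulin relatives listed under other symbols, were at 6.13 and 5.03 FPKM in the knockout pool and 4.68 and 3.82 in the control pool, with intervals that included 1, and were named after their values were seen.

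Among adhesive and matricellular proteins, which bind cells or regulate the matrix, 7 were measured and 4 had an interval above 1, beside 28.0% of all measured genes. Sparc (gene 20692, chr11:55394159-55420080), a secreted collagen-binding protein, was at 42.3 FPKM in the knockout pool and 28.6 in the control pool, a ratio of 1.48 (1.34 to 1.63). Its relative Sparcl1 was at 35.05 FPKM in the knockout pool and 33.6 in the control pool (1.04, 0.952 to 1.14), and Sparc counts per Sparcl1 count were 1.42-fold higher in the knockout pool (1.24 to 1.62). Thbs1 (gene 21825, chr2:118111876-118127133), thrombospondin-1, an activator of latent TGF-beta and inhibitor of vessel growth, was at 8.69 FPKM in the knockout pool and 5.05 in the control pool, a ratio of 1.72 (1.475 to 2.01). Fn1, fibronectin, was at 14.99 FPKM in the knockout pool and 12.3 in the control pool (1.21, 1.11 to 1.33). Postn, periostin, a stromal protein of remodelling tissue, was at 5.50 FPKM in the knockout pool and 3.85 in the control pool (1.43, 1.11 to 1.85). Tnc, tenascin-C, was at 6.41 FPKM in the knockout pool and 6.12 in the control pool (1.05, 0.909 to 1.21). Thbs3, at 1.40 FPKM in the knockout and 1.27 in the control pool, had an interval that included 1, as did Thbs2 and Thbs4, which were below 1 FPKM.

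The small leucine-rich proteoglycans, which bind collagen fibrils and set their spacing, were abundant and close between the pools. Bgn, biglycan, was at 35.25 FPKM in the knockout pool and 31.3 in the control pool (1.13, 1.01 to 1.25), an interval that included 1 with TMM scaling. Dcn, decorin, was at 33.8 FPKM in the knockout pool and 32.4 in the control pool (1.04, 0.918 to 1.17), and Lum, lumican, at 4.29 and 3.82 (1.12, 0.8003 to 1.57). Of the lysyl oxidases, which cross-link collagen and elastin, Loxl2 was the most abundant, at 6.23 FPKM in the knockout pool and 4.54 in the control pool (1.37, 1.145 to 1.65); it is known to act on type IV collagen. Loxl3 was at 2.77 FPKM in the knockout pool and 2.00 in the control pool (1.39, 1.01 to 1.91), an interval that included 1 with TMM scaling. Loxl1, which acts on elastin, was at 1.44 FPKM in the knockout and 1.21 in the control pool, Lox at 0.61 and 0.30 and Loxl4 at 0.48 and 0.37, all with intervals that included 1.

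Of the 30 matrix genes that did not reach 1 FPKM, 7 were basement membrane and 4 fibrillar genes, and the counting interval lay above 1 for 6 and below 1 for 0. With TMM scaling it lay above 1 for 5 and below 1 for 1, since that of Col5a3 then included 1 and that of Col11a1, at 0.06 FPKM in the knockout and 0.19 in the control pool, lay below 1. The 6 were Lama1, Col4a5 and Col5a3, given above, and the collagens Col9a2, Col22a1 and Col25a1. Col9a2 was at 0.84 FPKM in the knockout and 0.29 in the control pool, from 20 and 7 counts. Col22a1 and Col25a1 had 11 and 15 counts in the knockout library and 1 count each in the control library, so their ratios of 11.2 (1.63 to 482.4) and 15.3 (2.35 to 643.4) carry very wide intervals. Col19a1 was listed at 0 in both pools. The share of such intervals among all genes below 1 FPKM was not counted, so the 6 of 30 have no background beside them.

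Collagen folding and processing enzymes were mixed, and 1 of 18 measured was past 2-fold higher, where 2.78% of all measured genes were higher and 1.28% lower. P4ha2, a catalytic subunit of the prolyl hydroxylase that stabilises the collagen helix, was at 5.41 FPKM in the knockout pool and 1.24 in the control pool, a ratio of 4.36 (2.80 to 7.04). Plod2, a lysyl hydroxylase that prepares collagen cross-links, was at 2.32 FPKM in the knockout pool and 0.98 in the control pool, a ratio of 2.36 (1.54 to 3.69). P4hb, the abundant partner subunit and general protein disulfide isomerase, was at 1116 FPKM in the knockout pool and 1262 in the control pool (0.884, 0.869 to 0.899). Plod1 and Plod3, the other lysyl hydroxylases, were at 5.37 and 7.07 FPKM in the knockout pool and 6.27 and 8.21 in the control pool, with intervals that included 1. Both intervals lay below 1 with TMM scaling. The median log2 ratio of the 18 was 0.18, beside 0.08 over all measured genes. Pxdn, peroxidasin, which forms the sulfilimine cross-links of type IV collagen, was at 4.58 FPKM in the knockout and 2.40 in the control pool, a ratio of 1.91 (1.55 to 2.36), and was named after its values were seen.

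Of 26 measured matrix receptors, 1 was past 2-fold higher, where 2.78% of all measured genes were higher and 1.28% lower. Of the 26, 23 had a log2 ratio above 0 and the median was 0.24, beside 62.5% and 0.08 over all measured genes. Cd44, the hyaluronan receptor, was at 13.8 FPKM in the knockout pool and 5.58 in the control pool (2.61, 2.24 to 3.05). Itga2, the alpha subunit of an epithelial collagen receptor, was at 3.33 FPKM in the knockout pool and 1.57 in the control pool (2.12, 1.55 to 2.95). Itgb1, the beta subunit shared by most matrix integrins, was the most abundant, at 72.7 FPKM in the knockout pool and 62.85 in the control pool (1.16, 1.09 to 1.22). The lowest log2 ratios were those of Cd36, at 29.3 FPKM in the knockout pool and 30.7 in the control pool, and Sdc3, a syndecan, at 3.43 and 3.63. The laminin-binding integrin subunits of hemidesmosomes, Itga6 and Itgb4, were at 68.07 and 33.6 FPKM in the knockout pool and 58.5 and 27.0 in the control pool, ratios of 1.16 (1.11 to 1.22) and 1.24 (1.16 to 1.34), and were named after their values were seen.

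Of 23 further matrix proteins measured, 0 were past 2-fold, where 2.78% of all measured genes were higher and 1.28% lower. Of the 23, 15 had a log2 ratio above 0 and the median was 0.10, near the 62.5% above 0 and the median of 0.08 over all measured genes. Tgfbi, a collagen-binding protein and the most abundant, was at 105.5 FPKM in the knockout pool and 102.2 in the control pool (1.03, 0.976 to 1.09). Smoc1, a calcium-binding basement membrane protein, was at 2.48 FPKM in the knockout pool and 1.07 in the control pool (2.32, 1.52 to 3.60), and Ltbp3, which binds latent TGF-beta, at 2.66 and 1.68 (1.58, 1.18 to 2.13). Podn, a leucine-rich proteoglycan, was at 12.7 FPKM in the knockout pool and 16.95 in the control pool (0.747, 0.649 to 0.858), and Mfap2, of microfibrils, at 0.78 and 1.20, with an interval that included 1.

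Markers of the cells that make matrix differed by list. Over all measured genes 2.78% were past 2-fold higher and 1.28% lower, with intervals above 1 for 28.0% and below 1 for 12.5%. Sums are over every listed gene in the table, measured or not. The ratios of sums are without TMM scaling, which multiplies each by 0.926, so the direction of those near 1 depends on the scaling. Fibroblast markers had 1 of 10 measured past 2-fold higher. Of the 10, 9 had a log2 ratio above 0 and 1 below, and 4 had an interval above 1. The list summed to 67.75 FPKM in the knockout pool and 55.55 in the control pool, a ratio of summed counts of 1.36 (1.27 to 1.47). Endothelial markers had 1 of 10 past 2-fold higher, and 0 with TMM scaling. Of the 10, 8 had a log2 ratio above 0 and 2 below, and 5 had an interval above 1. The list summed to 42.07 FPKM in the knockout pool and 32.3 in the control pool, a ratio of 1.36 (1.26 to 1.48). Smooth muscle markers had 0 of 10 past 2-fold and summed to 634.5 FPKM in the knockout pool and 610.3 in the control pool, a ratio of 0.999 (0.975 to 1.02). Epithelial markers had 0 of 8 past 2-fold and a ratio of 1.03 (1.02 to 1.04), with intervals above 1 for 5 genes and below 1 for 3. Leukocyte markers had 1 of 9 lower and a ratio of 0.878 (0.821 to 0.939). Markers of enteric neurons, glia and interstitial cells had 0 of 3 past 2-fold (1.40, 1.22 to 1.62), those of mesothelium 1 of 2 lower (0.486, 0.328 to 0.710) and those of adipocytes 0 of 3 (0.939, 0.878 to 1.004). Most counts of the adipocyte list came from 1 gene, Cidec, with 1531 of 1654 in the knockout library and 1640 of 1795 in the control library.

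The knockout library also held far more RNA of marker genes of exocrine pancreas and stomach, and more of red blood cell markers. The ratios of summed counts were 15.5, 14.1 and 3.60. Of 22 measured pancreas genes, 20 were past 2-fold higher, beside 2.78% of all measured genes. The list summed to 3065 FPKM in the knockout pool and 212.7 in the control pool. Prss1 alone of that list was at 0, in the control pool. Of 7 measured stomach genes, 6 were past 2-fold, with a sum of 42.55 FPKM in the knockout pool and 2.31 in the control pool, where Gif, Muc5ac, Gkn2 and Lipf were at 0. No stomach gene exceeded 0.99 FPKM in the control pool. All 7 were thus measured through the knockout library alone, and the filter itself favours the count of 6. Some pancreas genes, Prss1 among them, passed the filter in the same way. Of 4 measured red blood cell genes, all globin genes, 4 were past 2-fold. The list summed to 240.0 FPKM in the knockout and 66.06 in the control pool, and Slc4a1 was at 0 in the control pool. With the pancreas genes left out of the library totals, the count ratios moved by a factor of 1.003 and the interval lay above 1 for 12 of 14 basement membrane genes as before. The source of these marker transcripts was not tested. Nor was their part, or that of the fibroblast and endothelial differences above, in the matrix values.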

How the data were processed

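Whole intestine was profiled by RNA sequencing in 2 libraries, 1 per genotype, each from RNA of 3 littermates. Reads were mapped to mm10 with BWA and Bowtie and quantified with RSEM, per the labels' protocols, and the submitters' processing notes name BWA, Bowtie2 and RSEM; versions and strand handling are not given in the sources used here. The authors deposited FPKM (fragments scaled to transcript length and to the mapped total) and expected counts per gene, per the file headers. The deposited expected counts totalled 8646358 in the knockout and 8809678 in the control library, and 92.9% of the nonzero values of matrix genes were whole (no remainder at the 2 decimals given). RSEM divides reads that fit several genes.

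Computed here were log2 ratios (1 FPKM added, genes of 1 FPKM or more in a library), count ratios with exact Clopper-Pearson intervals (counts rounded for the interval), ratios of summed counts, and conditional exact intervals for ratios of ratios. PCR copies are counted as reads, so intervals cover counting error only; 3 counts correspond to 0.347 CPM in the knockout and 0.341 in the control library. The computations used Python 3.11.15, scipy 1.17.1 and edgeR 4.0.16 (TMM factors only). Interval code was tested on simulated data. The members and lists were chosen with earlier results of these data known. Named were, per role, the most abundant gene, the extremes of the log2 ratio and every gene whose interval excluded 1; per pathway list the most abundant gene and the extremes. Marker lists were described by counts and sums, with Cidec and some genes at 0 named besides. One matrix gene matched by symbol is not reported here and is in no member count or sum.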

Additional observations from a re-analysis of the deposited data

How the results depend on the processing

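No paired analysis was possible because each genotype had 1 library, and no library could be left out for the same reason. With a pseudocount of 0.1 FPKM, and also after rescaling to TPM, 1 matrix gene in place of 0 was higher, a basement membrane gene. Under the other 5 alternatives the count was 0, and 0 fibrillar genes were past 2-fold under any of the 7. Counts over all genes changed more: 699 higher and 282 lower with a pseudocount of 0.1 FPKM, 191 and 84 with a filter of 5 FPKM, 216 and 80 with 50 or more expected counts, and 613 higher with TPM. In the pathway and cell type lists together 1 gene instead of 2 was lower with 5 FPKM or 50 counts.

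TMM lowered knockout values by 0.11 and the median ratio by 0.09 on the log2 scale. Ratios of summed counts became, with TMM and the median ratio in turn, 1.41 and 1.43 for basement membrane genes, 1.11 and 1.13 for fibrillar genes and 1.12 and 1.135 for all matrix genes. For the other matrix genes they were 0.9898 (0.963 to 1.02) and 1.007, so that the direction for that group depends on the scaling. Leaving out Fbln1 was an alternative added after seeing the data. Without it, and without either scaling, that group had 1.18 and elastic fibre genes turned to 1.15. With TMM the elastic fibre genes without Fbln1 had 1.07 (0.939 to 1.21). With TMM or the median ratio, the intervals of Col1a2, Col3a1, Col5a1, Col5a2, Col5a3, Col6a2, Bgn and Loxl3 included 1 and that of Col11a1 lay below 1. This left 1 of 7 fibrillar genes above 1 under either scaling (14.3%), beside 12 of 14 basement membrane genes. Over all genes 2359 intervals lay above 1 and 2738 below with TMM (17.8% and 20.7%). These interval counts were added after seeing the data.

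The median log2 ratio of fibrillar genes was 0.11 with the median ratio and 0.0936 with TMM. That of all genes was 0.10 with a pseudocount of 0.1 FPKM, 0.0706 without a filter, 0.0736 with 5 FPKM, 0.108 with TPM, 0.0105 with the median ratio and -0.0109 with TMM. Most of the 30 members below 1 FPKM had few counts and wide intervals.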

Other observations

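Matrix genes that lie next to each other in the RefSeq annotation of GRCm38.p6 were set side by side, without a test. Col3a1 and Col5a2 on chromosome 1, 24624 bases apart, had ratios of 1.13 and 1.25. Col6a2 and Col6a1 on chromosome 10 had 1.14 and 1.098, and Dcn and Lum on the same chromosome 1.04 and 1.12. Col6a5 and Col6a4 on chromosome 9, 27854 bases apart, had 1.51 and 1.03. The type IV collagen pair Col4a4 and Col4a3 overlaps by 114 bases at its ends, as Col4a1 and Col4a2 do by 85, but had too few counts (6.03 and 16 in the knockout library, 2 and 14 in the control library) to compare.

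Chain proportions per length in further matrix proteins were set side by side, without a test. The FPKM of Col6a1 was 4.38 times that of Col6a3 in the knockout pool and 4.07 times in the control pool. Nid1 was at 2.00 times Nid2 in the knockout pool and 1.81 times in the control pool, and Col5a1 at 0.832 and 0.820 times Col5a2. Lamb1 was at 1.39 times Lamc1 in the knockout pool and 1.66 times in the control pool, and at 1.66 and 2.05 times Lama5.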
